A study of Mus musculus with 19 samples.

Results

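Splenic CD8 T cells whose clone the authors labelled as a top clone of the spleen were set against the other splenic CD8 T cells with a receptor label. The cells were taken from the deposited per-cell table by 1 rule. The library had to come from a spleen, and the clonotype label had to read Top_Spleen for the clone cells or Other for the cells they were set against. Cells without a label were left out. The rule found 716 top-clone cells among 11079 labelled spleen cells, 16557 spleen cells and 41099 cells of the whole series. They fell into 310 cells of regressing spleen 2, 396 cells of regressing spleen 3 and 10 cells of growing spleen 3. The other labelled cells numbered 3892, 3745 and 2726 in the same libraries. The 10 top-clone cells of the growing spleen enter no test, and their values are given beside those of the other cells as a description.

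The study set hosts whose transplanted tumour regressed against hosts whose tumour grew. The tumour was A223, a mouse squamous cell carcinoma line, injected into C57BL/6J mice; the labels give the strain of the samples as C57BL/6. Neither age nor time after injection nor any treatment is stated in the labels, and the A223 cells, the sort for CD8 T cells and the 5′ capture kit are shared by every library compared here. Regressing spleens 2 and 3 came from mice labelled Regressing, and growing spleen 3 from a mouse labelled Growing. Each spleen gave 1 expression library. For comparison, 4 tumour libraries with receptor labels were used, regressing tumours 2 and 3 and growing tumours 2 and 3.

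A CD8 T cell recognises its target through a receptor that it assembled at random and passes on to all its daughters, so cells with the same receptor form a clone. A naive cell has not yet met its antigen, circulates through spleen and lymph nodes, and usually belongs to a very small clone. Contact with antigen starts activation and division, and a clone can then grow large. Exhaustion is the state of T cells kept under lasting stimulation, known from chronic infection and tumours, in which inhibitory receptors are kept on the surface and effector function wanes. Receptors of different clones can resemble each other in the loops that touch the antigen. The GLIPH method groups such receptors, and members of a group may recognise the same target. Cluster names (such as Activated Exhausted), clonotype labels and receptor similarity groups (Group1 to Group10) are the authors' own. The way in which the top clones were chosen and their number are not given in the sources used here. No expression of single genes per cell was analysed here, so the cluster names were not checked against marker genes.

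Depth and labelling of the 3 spleens were compared first. Over all cells, the median depth was lower in regressing spleen 2, at 4638.5 UMIs per cell, than in regressing spleen 3 (6447.5) and growing spleen 3 (6239). The spleen libraries held 27004477 to 41908594 UMIs (counts of single RNA molecules), and 63.7% to 69.5% of their cells carried a receptor label. Barcodes occurring in 2 libraries were few. In the 21 pairs of libraries with a spleen, 6 to 69 barcodes were shared, at most 1.34% of the smaller library. A barcode that also occurred in any other library was carried by 14 top-clone cells of regressing spleen 2, 16 of regressing spleen 3 and 0 of growing spleen 3, and 0 barcodes were shared between top-clone cells of different spleens. Of the labelled cells, the top clones made up 7.38% (exact 95% interval 6.61 to 8.21) in regressing spleen 2 and 9.56% (8.68 to 10.5) in regressing spleen 3. They made up 0.365% (0.175 to 0.671) in growing spleen 3. Intervals on shares are exact Clopper-Pearson intervals, and the share that a count of 0 allows is instead the one that 3 cells would make up, which is somewhat below the exact upper bound. Both cover counting error only, and cells of 1 clone are related to each other. The share in regressing spleens was not tested against that in the 1 growing spleen. The label joins all top clones under 1 name, so the size of a single clone was not read.

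The top-clone cells were nearly absent from the naive clusters and concentrated in exhausted and early activated ones. The naive clusters, 3 in the authors' naming, held 2 of 310 top-clone cells in regressing spleen 2 (0.645%, 0.0782 to 2.31) and 0 of 396 in regressing spleen 3, which allows a share of up to 0.758% (exact upper bound 0.927%). They held 65.0% and 58.8% of the other labelled cells in these spleens. The difference was -64.4 percentage points in regressing spleen 2 and -58.8 in regressing spleen 3, a mean of -61.6 ± 3.91 (SD, n = 2 libraries).

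The pair of exhausted clusters showed the opposite. They held 42.3% (36.7 to 48.0) and 32.1% (27.5 to 36.9) of the top-clone cells in regressing spleens 2 and 3, and 2.36% and 2.64% of the other labelled cells. The share was 17.9 times and 12.1 times as large among the top-clone cells, and the mean difference was 34.7 ± 7.40 percentage points (SD, n = 2 libraries). Most of it lay in Activated Exhausted, a cluster whose name combines activation with exhaustion. Activated Exhausted held 24.2% and 23.5% of the top-clone cells, against 1.36% and 1.52% of the other labelled cells. Alternative Exhausted held 18.1% (13.9 to 22.8) of the top-clone cells in regressing spleen 2 and 8.59% (6.02 to 11.8) in regressing spleen 3, against 1.00% and 1.12% of the other labelled cells. The top-clone intervals of the 2 spleens lay apart for Alternative Exhausted and overlapped for Activated Exhausted.

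The activation clusters did not all behave alike. Initial Activation was the most frequent cluster of top-clone cells in regressing spleen 3 and held 22.6% (18.0 to 27.6) and 32.3% (27.7 to 37.2) of them in regressing spleens 2 and 3, against 2.26% and 4.35% of the other labelled cells. Intermediate Activation held 25.2% and 26.5% of the top-clone cells, against 9.89% and 9.83% of the other labelled cells. Highest Activated went the other way and held only 4 and 3 top-clone cells, which were 1.29% (0.353 to 3.27) and 0.758% (0.157 to 2.20), against 10.1% and 12.5% of the other labelled cells. Joined, the 3 activation clusters held 49.0% and 59.6% of the top-clone cells and 22.3% and 26.7% of the other labelled cells, with a mean difference of 29.8 ± 4.38 percentage points (SD, n = 2 libraries).

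The remaining clusters held few top-clone cells. NKT like, named after T cells with features of natural killer cells, held 0 top-clone cells in both regressing spleens, which allows shares of up to 0.968% and 0.758%, against 3.26% and 4.27% of the other labelled cells. IFN Stimulated, named for the interferon response, held 2.58% and 3.54% of the top-clone cells and 4.03% and 4.46% of the other labelled cells, and these intervals overlapped in both spleens.

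A cluster was counted as different where the 95% intervals of the top-clone cells and the other labelled cells lay apart in both regressing spleens, in the same direction. This was so in 9 of 13 clusters (69.2%), of which 4 were higher among the top-clone cells (30.8% of the clusters) and 5 lower (38.5%). Higher were Activated Exhausted, Alternative Exhausted, Initial Activation and Intermediate Activation. Lower were the 3 naive clusters, Highest Activated and NKT like. The shares of 1 library sum to 100%, so a lack in the naive clusters alone raises the others. With the library as the replicate, a two-sided exact sign-flip test over 2 libraries cannot give a p under 0.5, and every difference in the same direction in both spleens has that p. A limma fit on logit shares with the library as a block pools its spread over 20 shares that are not independent. It gave Benjamini-Hochberg adjusted p = 6.82e-13 for the naive, 2.71e-08 for the exhausted and 0.00136 for the activation clusters. These p-values rest on that pooled spread and do not measure the spread of a share between the 2 libraries. Naive cells usually belong to very small clones, so a label for top clones may leave them out by its making. This was not tested.

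**Figure D1:**
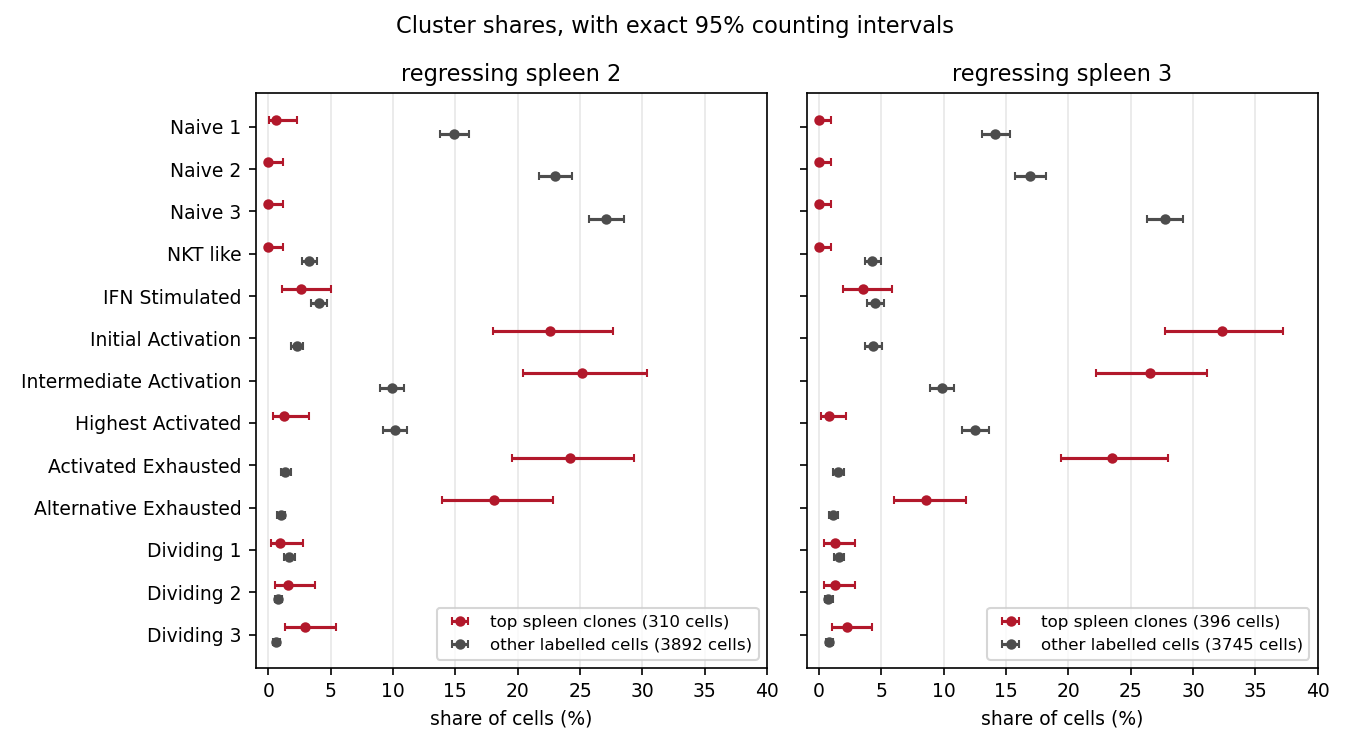
Share of cells in each of the authors' 13 clusters (x axis, percent of the cells of that kind) for top-clone cells (red, upper point) and other labelled cells (grey, lower point) in regressing spleens 2 and 3. Points are shares and bars exact 95% counting intervals. Red points exceed grey ones in Initial Activation, Intermediate Activation and both exhausted clusters, and lie at or near 0 in the naive clusters and NKT like.

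Since nearly all top-clone cells lay outside the naive clusters, they were also set against the other labelled cells outside those clusters. The exhausted clusters then held 42.5% and 32.1% of the top-clone cells, against 6.75% and 6.42% of the other labelled cells in regressing spleens 2 and 3. Initial Activation held 22.7% and 32.3% of the top-clone cells, against 6.46% and 10.6% of the others. Both directions were as before. Intermediate Activation no longer differed in 1 direction, with 25.3% and 26.5% of the top-clone cells and 28.3% and 23.9% of the others. Highest Activated remained far lower among the top-clone cells, at 1.30% and 0.758%, against 29.0% and 30.4% of the others. The 3 activation clusters joined therefore turned round, with 49.4% and 59.6% of the top-clone cells and 63.7% and 64.8% of the others. IFN Stimulated held 2.60% and 3.54% of the top-clone cells and 11.5% and 10.8% of the others.

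Seen from the clusters, the top clones supplied most of the labelled exhausted cells of the regressing spleens. They made up 131 labelled exhausted cells (58.7% of them) in regressing spleen 2 and 127 (56.2%) in regressing spleen 3. In growing spleen 3 they made up 3 of 75 (4.0%). They supplied 44.3% and 44.0% of Initial Activation, 16.8% and 22.2% of Intermediate Activation and 1.00% and 0.637% of Highest Activated in regressing spleens 2 and 3. Receptor labels were missing from 43.3% and 35.2% of the exhausted cells, against 36.6% and 30.3% of the naive cells, so part of each cluster was not assigned. Among the unlabelled cells themselves, 7.10% and 6.55% were exhausted, between the shares of the top-clone cells and of the other labelled cells.

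**Figure D2:**
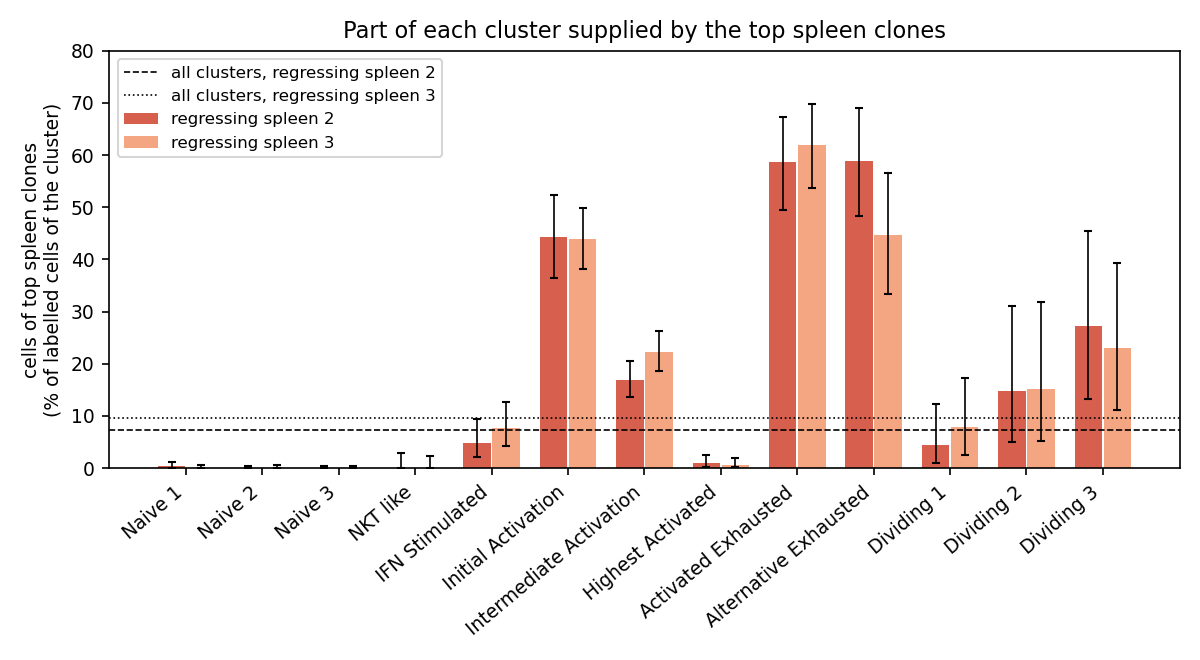
Part of the labelled cells of each cluster that belonged to the top clones (y axis, percent), in regressing spleen 2 (dark bars) and regressing spleen 3 (light bars), with exact 95% counting intervals. The horizontal lines mark the share over all clusters, 7.38% (dashed, spleen 2) and 9.56% (dotted, spleen 3); the bars of the exhausted clusters and Initial Activation stand at 44.0% to 62.0%.

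The difference in dividing cells was small in percentage points. The 3 dividing clusters held 5.48% (3.23 to 8.64) and 4.80% (2.91 to 7.39) of the top-clone cells, 17 and 19 cells, against 3.03% and 3.12% of the other labelled cells. The mean difference was 2.06 ± 0.550 percentage points (SD, n = 2 libraries), and the limma fit over 20 shares gave an adjusted p of 0.146. Dividing 3 held 2.90% and 2.27% of the top-clone cells and 0.617% and 0.801% of the others, with intervals apart in regressing spleen 2 only, and its adjusted p in the same limma fit was 0.00107. Dividing 1 held 0.968% and 1.26% of the top-clone cells and 1.67% and 1.58% of the others. Dividing 2 held 1.61% and 1.26% of the top-clone cells and 0.745% and 0.748% of the others, and the intervals of both clusters overlapped. Outside the naive clusters the joined dividing share was lower among the top-clone cells, at 5.52% and 4.80%, against 8.66% and 7.59% of the others. Its members did not go the same way. Dividing 1 was lower with intervals apart in both spleens, at 0.974% (0.201 to 2.82) and 1.26% (0.411 to 2.92) of the top-clone cells and 4.77% (3.70 to 6.04) and 3.83% (2.93 to 4.91) of the others. Dividing 3 held 2.92% and 2.27% of the top-clone cells and 1.76% and 1.95% of the others, with overlapping intervals.

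The authors' phase call sorts each cell into G1, S or G2M by which of its S and G2M gene scores is positive and higher. The calls G1, S and G2M were given to 75.2%, 20% and 4.84% of the top-clone cells and 72.9%, 19.8% and 7.35% of the other labelled cells in regressing spleen 2. In regressing spleen 3 they were given to 69.4%, 24.0% and 6.57% of the top-clone cells and 73.7%, 18.7% and 7.53% of the others. No phase differed with intervals apart in both spleens. The clusters in which the G2M calls lay were also counted. Of the G2M-called cells, 11 of 15 (73.3%, 44.9 to 92.2) and 8 of 26 (30.8%, 14.3 to 51.8) lay in dividing clusters among the top-clone cells, against 40 of 286 (14.0%) and 45 of 282 (16.0%) among the others. The intervals lay apart in regressing spleen 2 only. Outside the dividing clusters, 1.37% and 4.77% of the top-clone cells and 6.52% and 6.53% of the others were called G2M. Here, too, the intervals lay apart in regressing spleen 2 only. S calls lay mostly outside the dividing clusters in both kinds of cell, since only 8.06% and 8.42% of the S-called top-clone cells and 10.1% and 9.12% of the S-called others were in them. The median S score was -0.0338 and -0.0294 in top-clone cells and -0.0444 and -0.0451 in the others. The median G2M score was -0.0628 and -0.0625 in top-clone cells and -0.0614 and -0.0596 in the others.

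The top-clone cells had fewer UMIs than the other labelled cells of their library. The median was 3911 UMIs (quartiles 3153.5 and 4477.25) in top-clone cells and 4657 (3742 and 5867.5) in the other labelled cells of regressing spleen 2. It was 4861 UMIs (3952.25 and 6131.5) in top-clone cells and 6554 (5211 and 8139) in the others of regressing spleen 3. The ratio of medians was 0.840 and 0.742, and the mean difference -1219.5 ± 670 UMIs (SD, n = 2 libraries). UMIs per cell count captured molecules, so the RNA content of a cell and the efficiency of its capture cannot be told apart. The middle ranges of the 2 kinds of cell overlapped in both spleens.

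The number of detected genes did not follow the UMIs in both spleens. Top-clone cells had a median of 1544 and 1886 detected genes, against 1475 and 2009 in the other labelled cells, a difference of opposite sign in the 2 spleens. Genes per 1000 UMIs, a measure of how widely the molecules of a cell are spread over genes, had medians of 400 and 385 in top-clone cells and 315 and 305 in the others, ratios of 1.27 and 1.26. This measure falls as depth grows, so the other labelled cells were weighted to the UMI distribution of the top-clone cells in 20 bins, an alternative added after the data were seen. At matched depth the top-clone cells had 1544 and 1886 genes and the others 1318 and 1689, and genes per 1000 UMIs were 400 and 385 in top-clone cells and 341 and 344 in the others. Of these weighted others, 71.9% and 61.3% were naive. With the others weighted instead to the clusters of the top-clone cells, at unmatched depth, they had 1675 and 1997 genes, more than the top-clone cells. Depth and clusters were not matched together.

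Mitochondrial RNA was lower in the top-clone cells. The median mitochondrial share of UMIs was 2.32% (quartiles 1.93 and 2.73) in top-clone cells and 3.14% (2.76 and 3.54) in the other labelled cells of regressing spleen 2. In regressing spleen 3 it was 2.11% (1.73 and 2.47) in top-clone cells and 2.85% (2.5 and 3.26) in the others. The upper quartile of the top-clone cells thus lay below the lower quartile of the others in both spleens. The ratio of medians was 0.739 in each spleen and the mean difference -0.781 ± 0.0521 percentage points (SD, n = 2 libraries). A limma fit with the library as block, over 5 per-cell measures, gave an adjusted p of 0.0233 for the mitochondrial share and of 0.163 for UMIs. Its spread rests on 2 differences per measure and is in part pooled over the 5 measures, which are on unlike scales. UMIs and genes entered this fit as log2 values. With the others weighted to the UMI distribution in 20 bins, the mean difference was -0.836 percentage points.

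**Figure D3:**
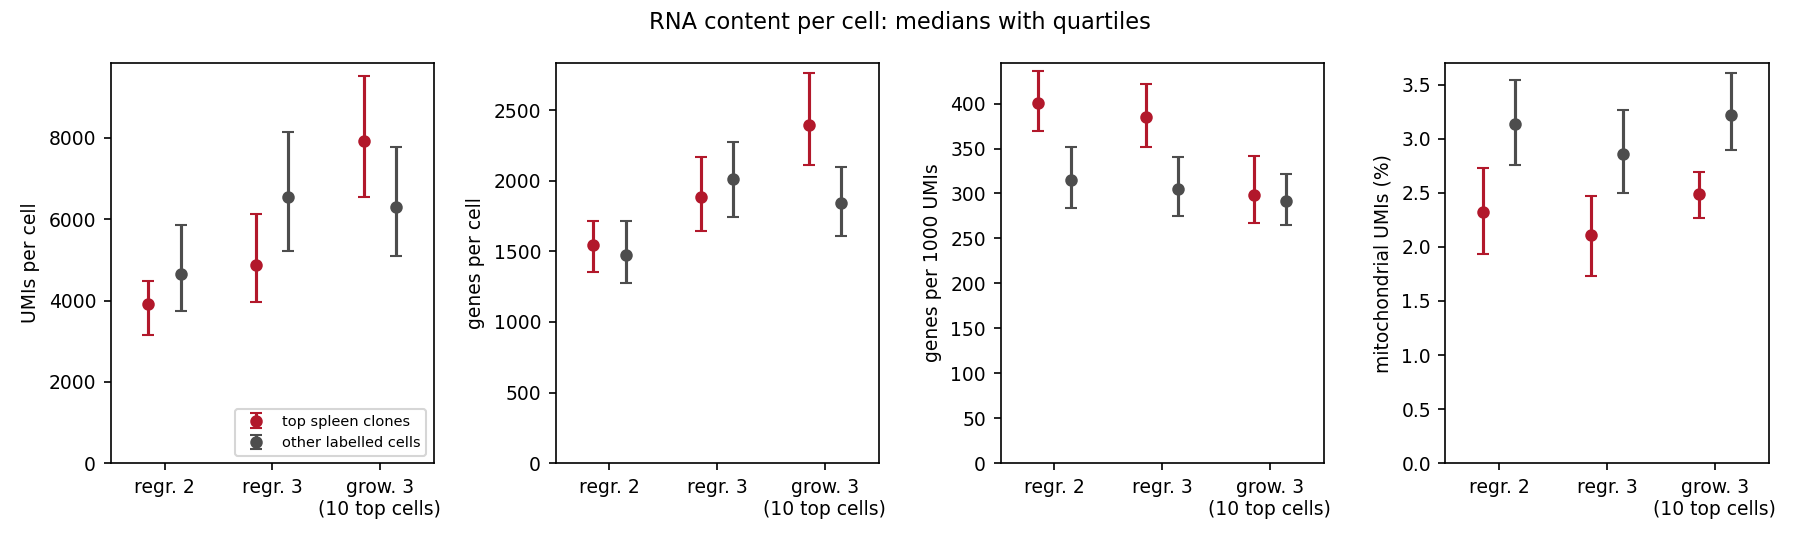
Medians (points) and quartiles (bars) over cells of UMIs per cell, detected genes per cell, genes per 1000 UMIs and the mitochondrial percent of UMIs in top-clone cells (red, left) and other labelled cells (grey, right) of regressing spleens 2 and 3 and growing spleen 3. In the regressing spleens UMIs and mitochondrial percent are lower and genes per 1000 UMIs higher in top-clone cells; the 10 top-clone cells of the growing spleen have more UMIs than the others.

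Naive and activated cells differ in RNA content, so the measures were also taken inside clusters with at least 20 cells of both kinds. These were Initial Activation, Intermediate Activation and both exhausted clusters, in both regressing spleens, which gave 8 comparisons. Clusters of 1 library are not independent of each other. The median UMI number was lower in top-clone cells in 8 of 8, with ratios of 0.717 to 0.969. In Intermediate Activation it was 3744.5 and 4852 in top-clone cells and 5221 and 6746 in the other labelled cells. In Activated Exhausted it was 3887 and 4862 in top-clone cells and 4506 and 5560 in the others. The mitochondrial share was lower in 8 of 8, with ratios of 0.722 to 0.886. In Activated Exhausted it was 2.22% and 1.96% in top-clone cells and 2.88% and 2.45% in the others. In Initial Activation it was 2.36% and 2.12% in top-clone cells and 2.67% and 2.44% in the others. Genes per 1000 UMIs were higher in 8 of 8, with ratios of 1.06 to 1.29. That measure falls as depth grows, and depth was not matched inside clusters. Genes per cell were lower in 6 of 8, the S score was higher in 6 of 8 and the G2M score was lower in 7 of 8. With the others weighted to the cluster mix of the top-clone cells of their library, the mean difference was -969 UMIs and -0.534 percentage points of mitochondrial UMIs.

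**Figure D4:**
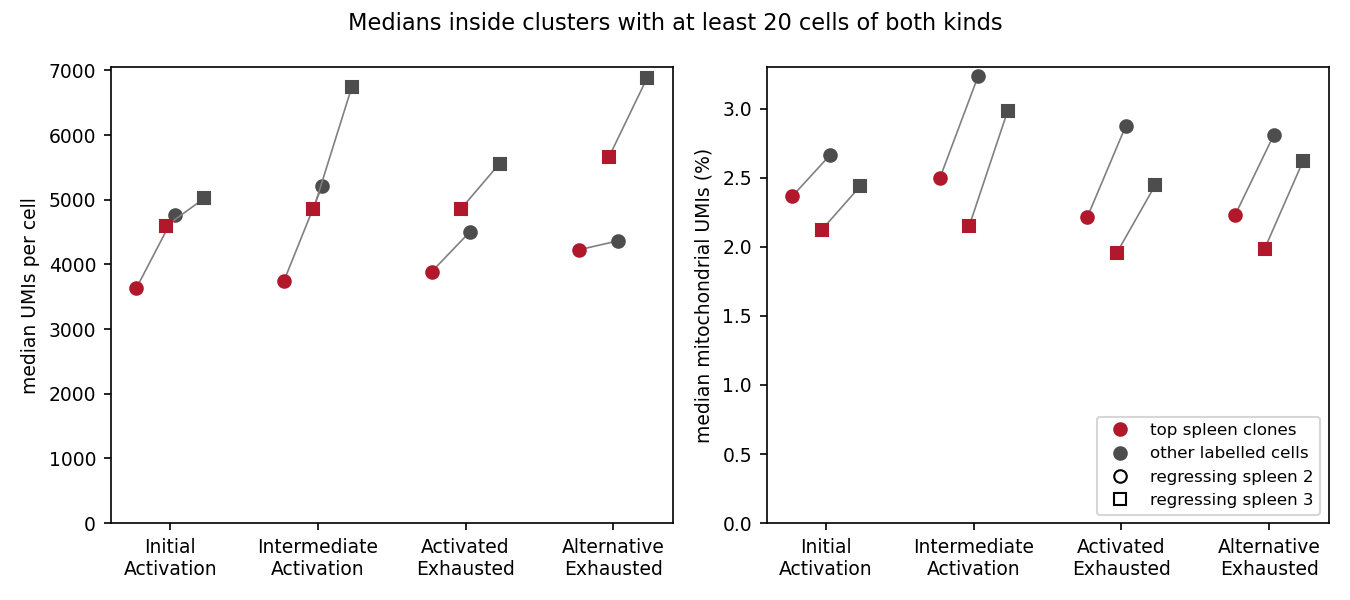
Median UMIs per cell (left panel) and median mitochondrial percent of UMIs (right panel) inside 4 clusters, for top-clone cells (red) joined to other labelled cells (grey) of the same library; circles are regressing spleen 2 and squares regressing spleen 3. Each line climbs from the top-clone cells to the others in both panels.

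Most top-clone cells carried a receptor of a similarity group. Clonotype label and similarity group are both read from the receptor, so these values are given as a description of the clones. In regressing spleens 2 and 3, 234 of 310 (75.5%) and 347 of 396 (87.6%) top-clone cells belonged to 1 of the 10 similarity groups, against 97 of 3892 (2.49%) and 33 of 3745 (0.881%) other labelled cells. Group1 led in both spleens, with 145 top-clone cells (46.8%) and 230 (58.1%), against 60 (1.54%) and 12 (0.320%) of the other labelled cells. The groups after it differed between the mice. Group9 was next in regressing spleen 2, with 58 top-clone cells (18.7%) and 9 others, and had 1 top-clone cell in regressing spleen 3. Group2 was next in regressing spleen 3, with 106 top-clone cells (26.8%) and 0 others, and was found in 0 labelled cells of regressing spleen 2. Group5 had 20 top-clone cells and 5 others in regressing spleen 2. Group10 had 0 top-clone cells in both, and 14 and 17 others. Of all labelled Group1 cells of the spleen, 70.7% and 95% were top-clone cells.

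The tumours with the same state and number held these groups in other proportions. Group2 made up 2489 of 4940 labelled cells (50.4%) in regressing tumour 3, was found in 0 labelled cells of regressing tumour 2 and growing tumour 2, and in 1 cell of growing tumour 3. In regressing tumour 3 its named cells fell into 3 clonotypes that shared 1 beta chain. Group1 made up 1153 of 4183 labelled cells (27.6%) in regressing tumour 2 and 275 of 4940 (5.57%) in regressing tumour 3. Its 11 named clonotypes over all tumours had 5 beta chains. So Group1 exceeded Group2 among the top-clone cells of regressing spleen 3, and Group2 exceeded Group1 in the tumour of that number. Group9 made up 6.93% and 3.89% of the labelled cells in regressing tumours 2 and 3. Membership in a group does not mean the same clone, and the clones of the spleen were not matched to those of the tumours, since only tumour cells carry clonotype names.

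**Figure D5:**
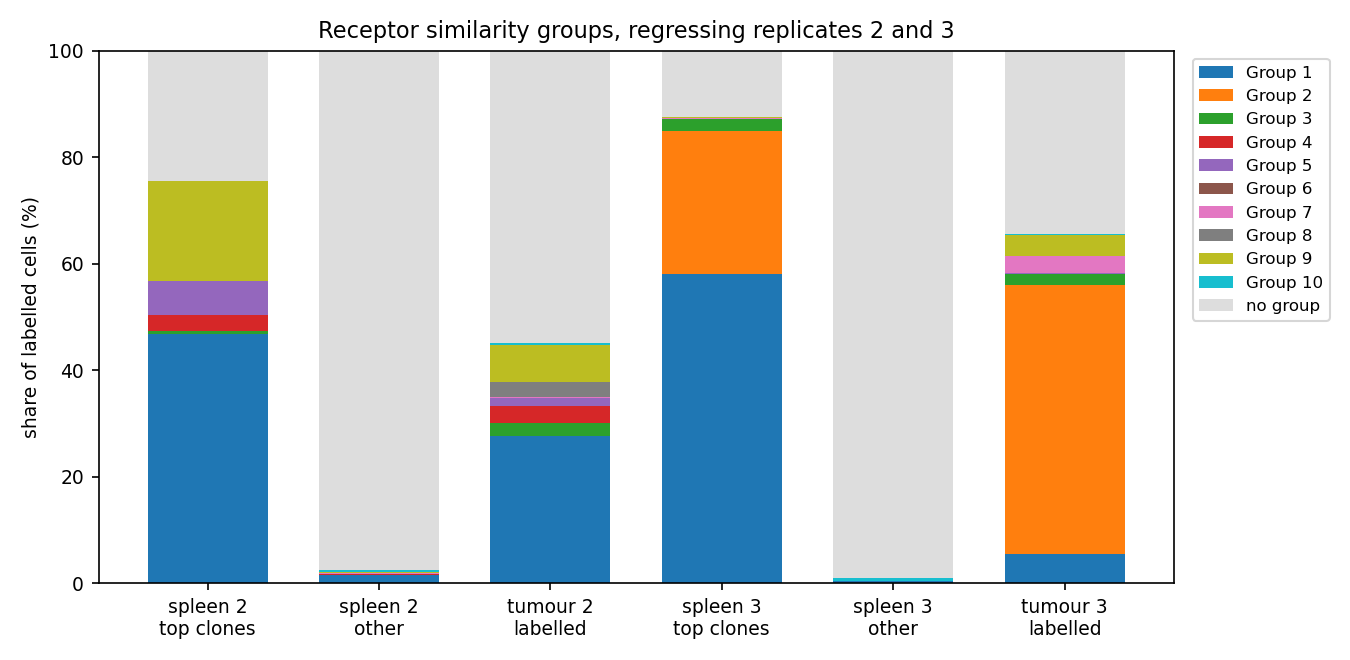
Share of cells in each receptor similarity group (y axis, percent) among top-clone cells, other labelled cells and, for comparison, all labelled tumour cells of regressing replicates 2 and 3. Group1 is the largest coloured part of both top-clone bars, Group2 appears only in the replicate 3 bars of top-clone and tumour cells, and the bars of other labelled spleen cells are almost wholly without a group.

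The share of exhausted and dividing cells was also read by receptor group inside the top clones. In regressing spleen 2, 53.1% (44.6 to 61.4) of the 145 Group1 cells, 25.9% (15.3 to 39.0) of the 58 Group9 cells and 28.9% (19.1 to 40.5) of the 76 cells without a group were in exhausted clusters. Group1 lay apart from both, but not from Group5, whose 20 cells were exhausted in 65% (40.8 to 84.6). In regressing spleen 3 the exhausted share was 33.5% (27.4 to 39.98) in 230 Group1 cells, 34.0% (25.04 to 43.8) in 106 Group2 cells and 22.4% (11.8 to 36.6) in 49 cells without a group, with overlapping intervals. Division had another pattern. Of the 19 dividing top-clone cells of regressing spleen 3, 17 were in Group2 and 2 in Group1, which is 16.0% (9.63 to 24.4) of the Group2 cells and 0.870% (0.105 to 3.11) of the Group1 cells. In regressing spleen 2, 10 of the 17 dividing top-clone cells were in Group1 (6.90% of it, 3.36 to 12.3) and 0 of the 58 Group9 cells divided, which allows a share of up to 5.17% (exact upper bound 6.16%). Group2 cells also held more UMIs than Group1 cells of the same spleen, with a median of 6445 in Group2 and 4530 in Group1. Each group was compared in 1 or 2 libraries, and cells of 1 clone are not independent.

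The states of 1 receptor group in spleen and tumour were set side by side. Group2 cells were exhausted in 34.0% of top-clone cells of regressing spleen 3 and in 62.0% (60.0 to 63.9) of labelled cells of regressing tumour 3, and activation clusters held 47.2% of these spleen cells and 20.5% of these tumour cells. Dividing clusters held 16.0% of these spleen cells and 12.5% of these tumour cells, with overlapping intervals. Group1 cells were exhausted in 53.1% and 33.5% of top-clone cells of regressing spleens 2 and 3. In labelled cells of regressing tumours 2 and 3 this share was 40.2% and 36.7%. It was higher in the top-clone cells for replicate 2, and the intervals overlapped for replicate 3. Group1 cells were dividing in 6.90% and 0.870% of these spleen cells and in 14.0% and 4.0% of the tumour cells, with overlapping intervals in both replicates. The tumour values cover all labelled cells of a group and the spleen values only top-clone cells. Of the other labelled Group1 cells of regressing spleen 2, 9 of 60 (15%) were exhausted. Over all its labelled Group1 cells the exhausted share is therefore lower than 53.1%, and that share was not set against the tumour.

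Group1 also allowed a comparison at like receptors. Among Group1 cells alone, 53.1% (44.6 to 61.4) and 33.5% (27.4 to 39.98) of the top-clone cells were in exhausted clusters, against 9 of 60 (15%, 7.10 to 26.6) and 2 of 12 (16.7%, 2.09 to 48.4) of the other labelled cells. The intervals lay apart in regressing spleen 2 and overlapped in regressing spleen 3. The naive clusters held 0 Group1 top-clone cells in either spleen, against 21 of 60 (35.0%) and 3 of 12 (25%) of the other Group1 cells. Without Group1, the exhausted share was 32.7% and 30.1% in top-clone cells and 2.17% and 2.60% in the others, with a mean difference of 29.0 percentage points. Both splits were added after the data were seen.

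The contrast between top-clone cells and other cells was then set beside the one in tumours, where the authors' named clonotypes were compared with the cells labelled Other. Each of 12 measures was tested with a two-sided exact permutation test of 2 regressing spleens against 4 tumours, whose smallest p is 0.0667. No measure could therefore pass 0.05. In the naive clusters the mean difference was -61.6 percentage points in the spleens and -12.1 ± 2.40 in the tumours (SD, n = 4; exact p = 0.0667, adjusted p = 0.16). The tumour difference lay almost wholly in Naive 3, with a mean of -12.0 points, against -0.0638 in Naive 2. A naive difference cannot go further below 0 than the naive share of the other labelled cells, 65.0% and 58.8% in the spleens. The gap was therefore not read as a weaker contrast in the tumours. In the exhausted clusters it was 34.7 points in the spleens and 25.4 ± 9.95 in the tumours (exact p = 0.333, adjusted p = 0.5). In the activation clusters it was 29.8 points in the spleens and -11.4 ± 12.1 in the tumours (exact p = 0.0667, adjusted p = 0.16). It was above 0 in both spleens and in 1 of 4 tumours, regressing tumour 2 (4.61). Outside the naive clusters the spleens' difference was -9.78 points, while the tumour values cover all clusters. The mitochondrial difference was -0.781 points in the spleens and -0.218 ± 0.0780 in the tumours (exact p = 0.0667, adjusted p = 0.16). It was below 0 in both spleens and in 4 of 4 tumours. The UMI difference was -1219.5 in the spleens and 1254 ± 1310 in the tumours (exact p = 0.133, adjusted p = 0.267), where it was above 0 in 3 of 4 libraries. With the others weighted to the cluster mix of the top-clone cells, the spleen differences were -0.534 points and -969 UMIs. The tumour values were not weighted in this way. The 2 contrasts rest on labels of different making, and spleens and tumours of 1 state and number may come from the same mouse.

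In growing spleen 3, the 10 top-clone cells fell into 3 of the 4 joined classes. Of them, 0 were naive, 3 were in exhausted clusters, 4 in activation clusters and 3 in dividing clusters, against 69.1%, 2.64%, 23.7% and 1.65% of the 2726 other labelled cells. Their UMIs ran from 3601 to 17552 with a median of 7933, and the others had a median of 6293. Their median mitochondrial share was 2.49%, against 3.22% in the others. Of the 10 cells, 6 belonged to a receptor similarity group, 4 of them to Group5, which made up 12.7% of the labelled cells in growing tumour 3. With 10 cells, a share of 0 allows up to 30%.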

How the data were processed

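Per the labels, single-cell libraries were made from sorted CD8 T cells, and per the submitters' processing notes the reads went through Cell Ranger, in a version that no source used here gives. The per-cell table, per the file headers a Seurat table, holds counts of UMIs and detected genes summed by the authors without normalisation. The deposited percent of mitochondrial UMIs, the deposited S and G2M score, phase, cluster name, clonotype label and receptor similarity group are the authors' values. Cells had 501 or more genes and up to 9.83% mitochondrial UMIs. No source used here says how doublets were treated, and none were called or removed.

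Shares and medians were computed per library, and the library was the replicate. The main value was the difference between top-clone and other labelled cells of a library, averaged over the 2 regressing spleens, with an exact sign-flip test. Both kinds of cell come from the same library, which is the pairing, so the replicate number was a block from the start. With 2 libraries, the sign-flip p tells only whether both differences share a sign and does not measure their spread. The labels do not name the animals, so the spread between these libraries may be technical. The limma fits pool that spread over shares or over measures. Every cluster, phase and receptor group was named, and clusters with intervals apart in both spleens were described in full. The threshold was 0.05. The cells, comparisons and lists were chosen with earlier results of these data known. Python 3.11.15, scipy 1.17.1, pandas 2.3.3, R 4.3.3 and limma 3.58.1 were used. The share comparison was tested on simulated data with independent cells and the same proportions in both libraries. Related cells of a clone and spread between libraries were therefore not covered. Gene expression per cell, receptor sequences and the variant table of A223 cells were not used here.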

Additional observations from a re-analysis of the deposited data

Results flagged for a closer look

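In the naive clusters, the difference between named clonotypes and other labelled cells in growing tumour 3, -15.7 percentage points, stood far from those of the other 3 tumours, which ran from -11.2 to -10.5. Chance flags about 1 in 20 groups of 4 in this way. With 12 measures set against the tumours, 1 such flag can arise by chance.

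The 10 top-clone cells of growing spleen 3 differed from the other labelled cells in the direction opposite to both regressing spleens in 4 of the 12 measures set against the tumours, and this was not tested. Among single clusters and receptor groups this also held for Dividing 1 and Group9. Dividing 1 was at 8.86 percentage points in the growing spleen, against -0.702 and -0.313 in regressing spleens 2 and 3. The value of the growing spleen rests on 1 top-clone cell. Group9 was at -0.0367 in the growing spleen, against 18.5 and 0.253 in the regressing spleens. Growing spleen 3 had 1 labelled Group9 cell, which was not a top-clone cell, and regressing spleen 3 also had 1. The S call was -6.10 percentage points in the growing spleen (1 top-clone cell), against 0.242 and 5.24 in regressing spleens 2 and 3. The G2M call was 13.5 percentage points in the growing spleen (2 top-clone cells), against -2.51 and -0.964 in the regressing spleens. The median UMI number differed by 1640 in the growing spleen, against -746 and -1693 in the regressing spleens. The median G2M score differed by 0.00388 in the growing spleen, against -0.00134 and -0.00291 in the regressing spleens. Of these 10 cells, 3 were in dividing clusters.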

How the results depend on the processing

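The naive, exhausted and mitochondrial differences kept their direction under every alternative run. The fit without the replicate block gave the same values, with an exact permutation p of 0.333, the smallest that 2 against 2 allows, in the naive and exhausted clusters. The paired limma fit with the replicate block was not run on the receptor groups. It brought the adjusted p below the threshold for the naive (-61.6), exhausted (34.7) and activation (29.8) clusters and the mitochondrial percent (-0.781). The same held for the 9 clusters with intervals apart and Dividing 3 (1.88). The values in brackets are the main differences. For shares, the limma p-values belong to differences on the logit scale. These were -6.23 for the naive, 3.13 for the exhausted and 1.30 for the activation clusters, and 1.35 for Dividing 3. With all 3 spleens, signs turned for S (-0.206) and G2M calls (3.34), genes (168) and Dividing 1 (2.62), the dividing difference was 10.8, the UMI difference -266, and 1 cluster was apart instead of 9. Leaving out 1 regressing spleen gave UMIs of -1693 to -746, genes of -123 to 69, G1 calls of -4.28 to 2.27, Group5 of -0.0534 to 6.32 and Group7 of -0.0771 to 0.226. Outside the naive clusters, signs turned for the dividing (-2.97) and activation clusters (-9.78), Dividing 2 (-0.530), Intermediate Activation (-0.146), G1 (6.01) and S calls (-3.47). With the cluster mix matched, G1 (3.28) and S calls (-0.421) turned. Dividing 1 turned with UMI quartiles matched (0.435), and the G2M score as a mean over cells (0.00860). The cause of these turns was not tested. Of the alternatives added after seeing the data, leaving out Group1 turned Dividing 1 (0.199), G1 calls (0.155) and genes (83.5). Within Group1, the dividing clusters (-2.78), Alternative Exhausted (-0.495), IFN Stimulated (0.274) and G2M calls (3.70) turned, and 1 cluster was apart, with 12 other cells in regressing spleen 3. In 20 UMI bins, genes (211.5) and the G2M score (3.86e-05) turned, and without the dividing clusters G1 calls (0.138). The number of cells limits what a share of 0 allows, and it limits the values of the growing spleen, which had 10 top-clone cells.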
